A study of Mus musculus with 11 samples.

Results

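T cell receptor beta segments (Trb genes) were followed in RNA sequencing libraries of CD4+ cells from mouse lymph nodes. The members were all genes of the deposited count table whose symbol starts with Trbv, Trbd, Trbj or Trbc. This gave 53 of 55471 genes: 35 variable (Trbv), 2 diversity (Trbd), 14 joining (Trbj) and 2 constant (Trbc) genes, all on chromosome 6 of GRCm38. The study compared 5 libraries from C57BL/6 wild-type mice (WT) with 6 libraries from C57BL/6 mice of genotype Pggt1bfl/flLys-Cre (GLC), in which Pggt1b, which encodes a subunit of the prenylating enzyme GGTase-I, is flanked by loxP sites and deleted by Cre under a lysozyme promoter, active in macrophages and other myeloid cells rather than in T cells. In both groups, inguinal and axillary lymph node cells were enriched for CD4+ cells by untouched bead selection and kept for 2 h with concanavalin A at 1.25 μg/ml, a lectin that activates T cells. RNA of 2 mice was combined for GLC replicate 78. No source used here gives the ages.

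Each developing alpha beta T cell joins 1 Trbd to 1 Trbj segment and then a Trbv segment to that joint, and the joined exon is spliced to a constant gene. The Trbv segment encodes most of the variable domain, and the joint encodes the loop that most often contacts the antigenic peptide. The Trbj1 cluster lies just before Trbc1 and the Trbj2 cluster just before Trbc2, and transcripts are usually spliced to the constant gene that follows the joining segment used. In a polyclonal CD4+ population, segment counts therefore sum over many clones, and they do not identify single receptors. In bulk RNA, fewer cells using a segment and less RNA per cell cannot be told apart.

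Libraries held between 11308285 and 14620148 counts, and between 12603 and 19043 of these fell on Trb genes. Trb genes took 1165 ± 90.4 counts per 1000000 unscaled library counts (CPM) in WT (SD, n = 5) against 1112 ± 39.8 in GLC (SD, n = 6), with overlapping ranges. GLC replicate 9 stood apart in sex-linked genes, with 11 Xist counts against 2992 to 5943 in the other libraries. Its Y-linked genes had 633 counts in sum, against at most 1 in any other library. It was thus the only library with a male pattern, and it is in GLC. The T cell markers were present in every library: Cd3e, a subunit of the receptor's signalling complex, had at least 2795 counts and Cd4 at least 3383. Of the CD8 T cell genes, Cd8a had at most 7 counts and Cd8b1 had 104 to 189 in each library. B cell transcripts varied between libraries, with the summed level of 6 B cell markers between 72.9 and 718.7 CPM in WT and between 204.2 and 1078 CPM in GLC, from here on relative to TMM-scaled library sizes. Of these, Ms4a1 had 0 to 10 counts, while Igkc, the kappa light chain constant gene, had 271 to 8212. Their part in any Trb value was not tested.

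Variable segments differed widely in level. Trbv13-2 had the largest share of Trbv counts in every library. It had 811, 792, 763, 715 and 945 counts in WT replicates 1 to 5, and 727, 668, 635, 608, 694 and 712 counts in GLC replicates 6, 78, 9, 10, 11 and 12. Its share was 17.4% ± 0.319 in WT (SD, n = 5) and 17.8% ± 0.940 in GLC (SD, n = 6). The groups overlapped: the lowest share, 16.3%, and the highest, 19.2%, were both in GLC, in replicates 10 and 6. The 95% Wilson interval of a single library's share reached at most 1.27 percentage points to either side, and covers counting error only.

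The Trbv13 family has 3 genes that lie next to each other, interleaved with Trbv12 genes, and together they held 33.4% ± 1.40 of Trbv counts in WT and 32.9% ± 1.19 in GLC. They are shown here to let the bases at which these abundant segments differ be seen. Sequences here and below are from the GENCODE M21 transcripts. Each line gives, 5′ to 3′, 90 bases that end with the codon of the conserved cysteine and the codon after it, on the plus strand of GRCm38, with capitals where a base differs from Trbv13-2. They lie at chr6:41116369-41116458, chr6:41121733-41121822 and chr6:41130486-41130575, in the exon that encodes the variable domain.
Trbv13-1: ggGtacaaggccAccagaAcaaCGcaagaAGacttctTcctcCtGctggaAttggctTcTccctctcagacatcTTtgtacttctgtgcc
Trbv13-2: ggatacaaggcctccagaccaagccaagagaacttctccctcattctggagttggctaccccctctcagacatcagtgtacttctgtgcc
Trbv13-3: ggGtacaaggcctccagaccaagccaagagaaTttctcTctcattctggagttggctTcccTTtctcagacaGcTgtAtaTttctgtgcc
Over whole annotated transcripts, Trbv13-2 was 90.6% identical to Trbv13-3 and 87.1% identical to Trbv13-1. Of the 50-base windows of Trbv13-2 transcripts, 0.344% also occurred in another Trb gene, Trbv13-3. Among the 35 Trbv genes, 31 shared no 50-base window with another Trb gene, and the other 4 (Trbv12-2 with Trbv12-3, and Trbv13-2 with Trbv13-3) shared at most 1.24% of theirs. No source used here gives the read length.

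A total of 9 Trbv segments held at least 5% of Trbv counts on average, and together they held 74.9%. Levels of different segments were compared per kilobase of annotated exon, as shares of the length-scaled Trbv total over 11 libraries. On that scale Trbv13-2 stood first at 20.4% ± 0.835 (SD, n = 11). Trbv13-3 followed at 8.65% ± 0.794 and Trbv13-1 at 8.55% ± 1.03, a difference smaller than the spread between libraries. Trbv16, at 7.13% ± 0.704, and Trbv1, at 6.59% ± 0.537, differed by less than the SD of Trbv16. Trbv19, at 5.81% ± 0.325, and Trbv31, at 5.79% ± 0.949, differed by less than either SD. Trbv3 came next at 5.26% ± 0.658, then Trbv15 at 5.16% ± 0.773 and Trbv2 at 4.80% ± 0.522. By counts alone Trbv19 would stand second, at 8.39% ± 0.475, since 566 exon bases are annotated for it against 340 for Trbv13-2. Trbv1 is the segment farthest from the joining clusters. Trbv31, which lies after the constant genes on the minus strand, held 6.17% ± 1.01 of Trbv counts.

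**Figure D1:**
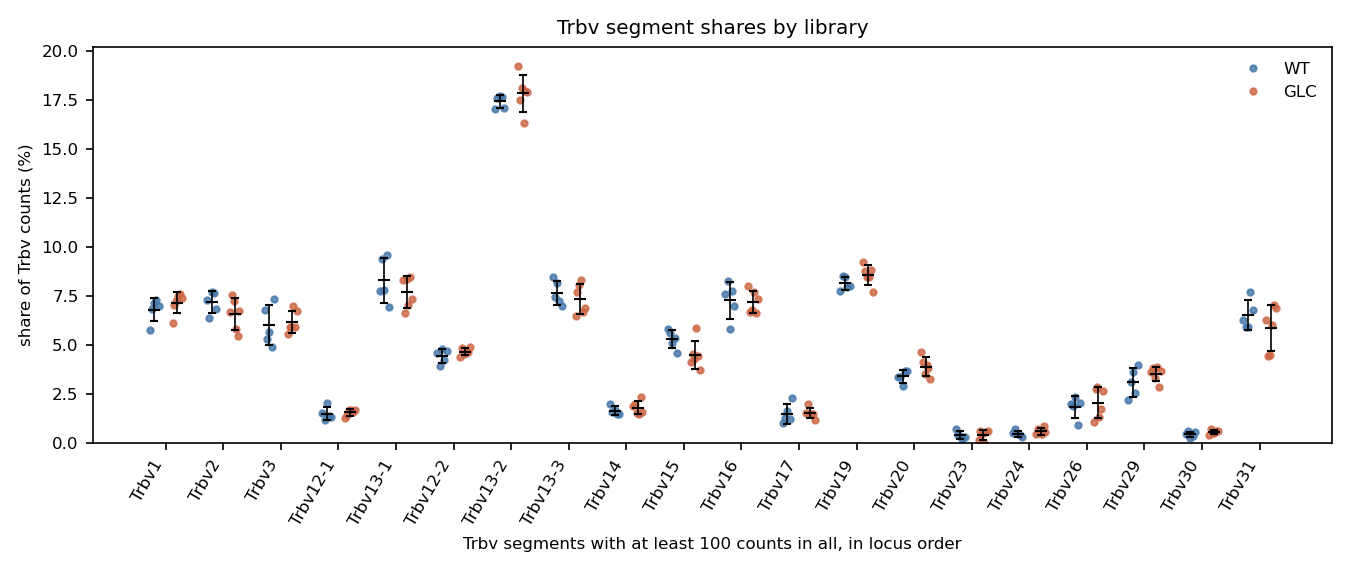
Share of Trbv counts (%, y axis) for each Trbv segment with at least 100 counts in all (x axis, locus order), with 1 point per library and group mean and SD as bars (WT n = 5, GLC n = 6). Trbv13-2 lies between 16.3% and 19.2% in every library, above all other segments.

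Trbv pseudogenes were nearly silent. Of 13 Trbv genes annotated as pseudogenes, 8 had 0 counts in all libraries, which allows each a share of at most 0.00655% of all 45802 Trbv counts. All pseudogenes together held 0.611% of Trbv counts, and Trbv24 alone gave 88.9% of that. Trbv24 had 25, 32, 20, 16 and 18 counts in WT and 17, 27, 19, 18, 34 and 23 in GLC, so this annotated pseudogene was read in every library of both groups. Among segments annotated as genes, Trbv5 had at most 7 counts and Trbv21 at most 16 in any library. The motif TGTGCC, searched on the sense strand in the last 30 annotated bases and covering the cysteine codon and a common next codon, was present in 14 of 22 Trbv genes and in 7 of 13 pseudogenes, or 60% of all 35.

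Usage was spread over many segments in both groups. The effective number of Trbv segments, the exponential of the Shannon entropy of the count shares, is the number of equally used segments that would give the same evenness. It was 15.3, 14.9, 15.0, 14.3 and 15.3 in WT replicates 1 to 5, and 14.4, 15.4, 15.1, 14.9, 15.2 and 15.2 in GLC replicates 6, 78, 9, 10, 11 and 12. The means were 15.0 ± 0.420 in WT (SD, n = 5) and 15.0 ± 0.345 in GLC (SD, n = 6), and the ranges overlapped almost fully. Between 21 and 25 Trbv segments had at least 1 count per library, the fewest in GLC replicate 78, the pooled library. The distance between the Trbv profiles of a pair of libraries, in percentage points of share that would have to move between segments to make them equal, had a median of 6.25 over 10 WT pairs, 6.45 over 15 GLC pairs and 6.62 over 30 pairs across groups. Pairs across groups shared libraries with each other and were not tested.

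Trbv profiles differed between libraries within each group. The chi-square of Trbv counts over libraries, divided by its degrees of freedom, was 3.44 over all 11 libraries, 3.69 within WT and 3.16 within GLC, where independent reads from 1 common profile would give about 1. Libraries from separate samples usually exceed this, and reads copied by PCR are not independent. Single segments ranged from 0.791 for Trbv12-2 to 8.91 for Trbv26. Trbv26 had 95, 85, 101, 37 and 114 counts in WT replicates 1 to 5, and 40, 105, 101, 49, 67 and 105 in GLC replicates 6, 78, 9, 10, 11 and 12. It was low in WT replicate 4 and in GLC replicates 6 and 10, with shares of 0.914%, 1.06% and 1.32%, against 1.74% to 2.88% elsewhere. The same 3 libraries had the fewest counts of Trbv23, a nearby segment named after its values were seen: 9, 6 and 0 counts, against 15 to 35 in the other libraries. Both segments were thus low in libraries of each genotype, and the log2 fold change of Trbv26 between groups was 0.010 (SE 0.29).

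Trbv31 and Trbv13-1 came next by chi-square per degree of freedom among segments with a mean of at least 50 counts, a measure that grows with counts. The coefficient of variation of the share, in turn, rises as counts fall. By it, Trbv26 (34.1%), Trbv17 (24.0%), Trbv29 (17.5%) and Trbv14 (16.6%) of these segments varied more than Trbv31 (16.3%). Trbv13-1 (12.1%) was also exceeded by others, among them Trbv12-1 (15.8%) and Trbv15 (15.0%). Trbv31 had 300, 267, 255, 312 and 375 counts in WT and 238, 169, 157, 225, 273 and 273 in GLC, with a chi-square per degree of freedom of 6.73. The lowest shares, 4.42% and 4.48%, were in GLC replicates 78 and 9, and the highest, 7.71%, in WT replicate 4. Trbv13-1 had 370, 423, 336, 388 and 384 counts in WT and 314, 253, 294, 263, 328 and 293 in GLC, with a chi-square per degree of freedom of 5.37. Trbv19, by contrast, lay close to sampling noise, at 1.21, with shares between 7.73% and 9.26%.

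Diversity and joining segments are short, and they are printed here to show their lengths and bases. The diversity segments lie at chr6:41533201-41533212 and chr6:41542163-41542176.
Trbd1: gggacagggggc
Trbd2: gggactgggggggc
The joining segments below are those with the largest and smallest mean share of each cluster, the pair with the smallest p among them, and the annotated pseudogene. Capitals mark the phenylalanine and glycine motif common to joining segments, searched on the sense strand as codon TTN, codon GGN, any codon and codon GGN.
Trbj1-2: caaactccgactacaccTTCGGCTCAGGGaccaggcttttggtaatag
Trbj1-4: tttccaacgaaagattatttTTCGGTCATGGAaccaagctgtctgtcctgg
Trbj1-5: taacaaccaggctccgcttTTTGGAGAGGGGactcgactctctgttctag
Trbj1-7: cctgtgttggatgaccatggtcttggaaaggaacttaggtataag
Trbj2-5: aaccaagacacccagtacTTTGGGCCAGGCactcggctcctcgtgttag
Trbj2-6: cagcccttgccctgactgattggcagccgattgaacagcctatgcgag
Trbj2-7: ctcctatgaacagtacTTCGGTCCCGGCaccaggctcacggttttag
These lie at chr6:41534001-41534048, chr6:41534811-41534861, chr6:41535084-41535133, chr6:41535642-41535686, chr6:41543453-41543501, chr6:41543598-41543645 and chr6:41543810-41543856, all on the plus strand. The motif was present in 11 of 14 annotated joining segments (78.6%) and in none of Trbj1-6, Trbj1-7 and Trbj2-6, the segment annotated as a pseudogene.

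Both diversity segments received reads, at annotated lengths of 12 and 14 bases. Trbd1 had 81, 78, 74, 33 and 52 counts in WT and 69, 75, 66, 55, 54 and 73 in GLC. Trbd2 had 55, 44, 62, 60 and 56 counts in WT and 34, 50, 25, 48, 29 and 84 in GLC. The groups overlapped for both, with log2 fold changes of 0.19 (SE 0.21) for Trbd1 and -0.17 (SE 0.26) for Trbd2. Counted per kilobase and summed over the segments of a class, levels averaged 10616 for Trbv, 8931 for Trbd, 16398 for Trbj and 13557 for Trbc genes over the 11 libraries. The annotated exons of Trbj genes are only 46 to 54 bases long, and those of Trbd genes are shorter. Reads can extend beyond such short exons, so these levels do not compare amounts of RNA between classes.

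Counts were spread more evenly over joining segments than over variable segments. Whether these reads came from joined transcripts was not tested, so the shares are not a direct measure of use. A library held between 697 and 1051 Trbj counts, and 12 of the 14 segments averaged at least 5% of them. Trbj1-2 had the largest mean share, 10.9% ± 1.73 (SD, n = 11), and Trbj2-7 the next, 9.31% ± 0.969, a difference within the spread between libraries. Trbj1-7 had the smallest, 3.28% ± 1.07. Trbj2-6, the pseudogene, had a share of 5.86% ± 1.11 and between 31 and 62 counts in each library, more than Trbj1-7 in each of the 11 libraries. The effective number of joining segments was 13.3 ± 0.262 in WT and 13.2 ± 0.209 in GLC. The distance between Trbj profiles had a median of 8.61 points over WT pairs, 9.86 over GLC pairs and 11.3 across groups, with overlapping ranges, and was not tested. In WT replicate 1, Trbj2-5 had 7 counts against 24 to 54 in the other libraries. Trbj2-5 falls below the share needed for naming and was named after its values were seen.

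**Figure D2:**
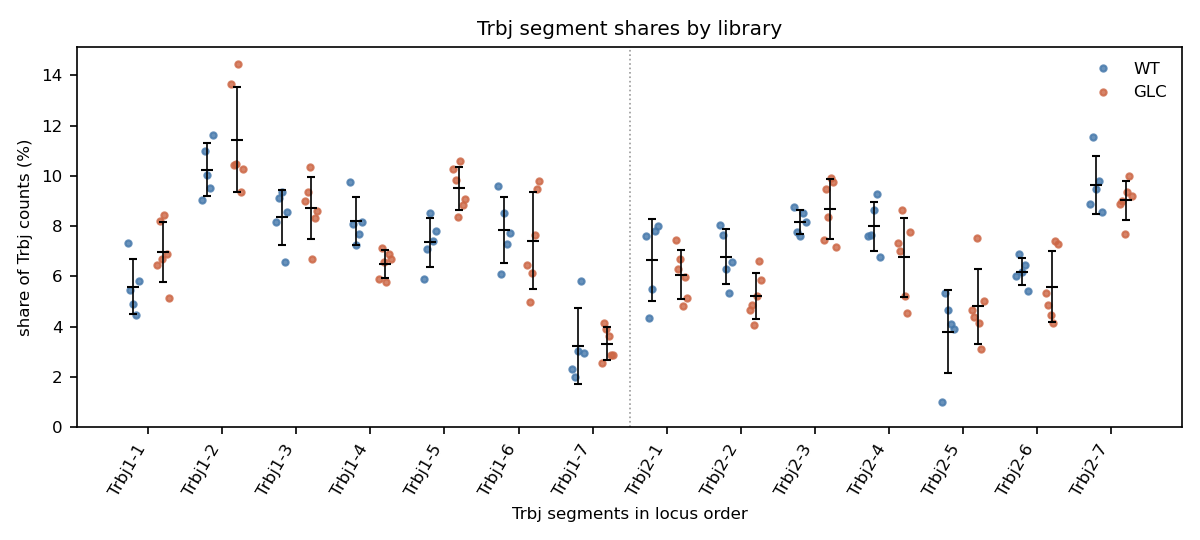
Share of Trbj counts (%, y axis) for the 14 Trbj segments (x axis, locus order, dotted line between the clusters), with 1 point per library and group mean and SD as bars (WT n = 5, GLC n = 6). Trbj1-2 and Trbj2-7 have the largest mean shares, 10.9% and 9.31%, and Trbj1-7 the smallest, 3.28%.

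The 7 segments of the Trbj1 cluster held about as many Trbj counts as those of the Trbj2 cluster. Their share was 52.1%, 48.8%, 51.6%, 48.8% and 52.6% in WT replicates 1 to 5. The GLC shares were 54.3%, 54.1%, 52.5%, 57.2%, 52.6% and 52.5% in replicates 6, 78, 9, 10, 11 and 12. The ranges touched, since WT replicate 5 lay above 3 GLC libraries, and GLC replicate 10 was the highest. The mean was 50.8% ± 1.85 in WT (SD, n = 5) and 53.9% ± 1.81 in GLC (SD, n = 6). The 95% Wilson interval of 1 library reached up to 3.70 points to either side, for counting error only. This sum over members was not tested.

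The constant genes held 65.4% of all Trb counts on average, and they are nearly identical over much of their length. Trbc1 and Trbc2 differ at 23 of 518 coding bases (95.6% identical). Only 1 of these differences, C260A counted from 1 at the first base of the constant coding sequence with the Trbc1 base given first, lies within the 375 bases of that exon, and 15 lie within the 107 bases of the third constant exon. The first pair below gives 60 bases around that base (chr6:41538447-41538506 for Trbc1 and chr6:41546959-41547018 for Trbc2). The second pair gives the third constant exon (chr6:41539229-41539335 and chr6:41547772-41547878). Capitals mark bases that differ between the genes.
Trbc1: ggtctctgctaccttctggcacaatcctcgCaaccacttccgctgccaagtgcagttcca
Trbc2: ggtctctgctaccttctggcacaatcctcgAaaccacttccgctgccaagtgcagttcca
Trbc1: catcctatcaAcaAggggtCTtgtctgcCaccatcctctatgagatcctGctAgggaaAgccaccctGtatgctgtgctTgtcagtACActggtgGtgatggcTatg
Trbc2: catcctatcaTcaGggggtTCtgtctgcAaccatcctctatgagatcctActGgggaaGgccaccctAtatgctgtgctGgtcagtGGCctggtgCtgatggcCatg
After the stop codon the annotated transcripts were 47.9% identical. Of all 50-base windows, 40.5% of those in Trbc1 and 44.0% of those in Trbc2 occur in both genes, and no source used here says how reads that fit both genes were counted.

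Trbc2 had more counts than Trbc1 in every library. Trbc1 had 3618, 3586, 3370, 2911 and 4467 counts in WT and 3119, 3170, 2796, 2977, 3177 and 2993 in GLC. Trbc2 had 7456, 7283, 6518, 5943 and 7893 counts in WT and 5991, 5875, 5493, 5295, 6200 and 5818 in GLC. The Trbc1 share of Trbc1 and Trbc2 counts was 32.7%, 33.0%, 34.1%, 32.9% and 36.1% in WT, and 34.2%, 35.0%, 33.7%, 36.0%, 33.9% and 34.0% in GLC, each with a 95% Wilson interval of at most 1.03 points to either side. WT replicates 1, 2 and 4 lay below every GLC library, while WT replicate 5 had the highest share of all. The means, 33.8% ± 1.44 in WT (SD, n = 5) and 34.5% ± 0.876 in GLC (SD, n = 6), differed by 0.723 points, short of the threshold in an exact permutation test of both directions over 462 splits (p = 0.338). Without WT replicate 5 the difference was 1.32 points (exact permutation p = 0.0381). Of the omissions of 1 library only this one passed, and the others had exact permutation p between 0.278 and 0.590. Per kilobase of exon the Trbc1 share averaged 32.4%, while the Trbj1 cluster, which precedes Trbc1, averaged 52.5% of Trbj counts.

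**Figure D3:**
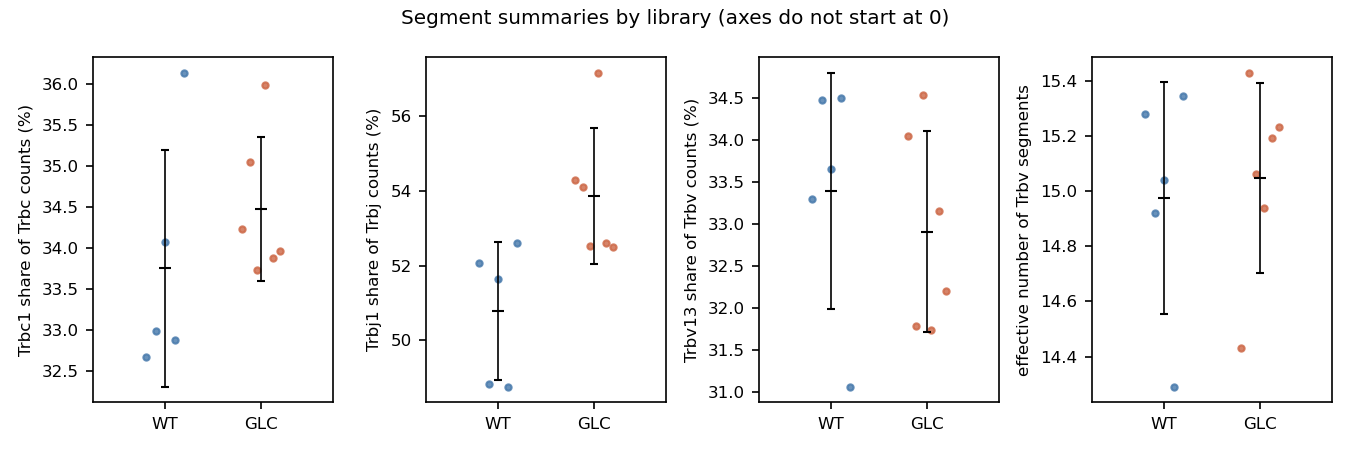
Trbc1 share of Trbc counts, Trbj1 cluster share of Trbj counts, Trbv13 family share of Trbv counts (all %) and effective number of Trbv segments (y axes, not starting at 0) in WT (n = 5) and GLC (n = 6), with 1 point per library and mean and SD as bars. WT and GLC overlap in all 4, least in the Trbj1 share (48.8% to 52.6% against 52.5% to 57.2%).

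GLC was then compared with WT segment by segment. No Trb segment passed the threshold. In edgeR's quasi-likelihood test over 12404 genes, 38 of the 53 members had enough counts to be tested, and 0 passed an adjusted p of 0.05, against 0% of all genes tested. At an unadjusted p under 0.05 there were 4 of 38 members, against 4.54% of all genes tested. Of these, 3 were lower in GLC, against 1.79% of all genes, and 1 was higher, against 2.75%. DESeq2 also had 0 members past the threshold, against 2 of all genes tested. It had 4 members at an unadjusted p under 0.05, against 4.7% of all genes. With limma-voom, 0 members and 0 of all genes passed, and 5 members had an unadjusted p under 0.05, against 4.34% of all genes. Each member's adjusted p in edgeR was 0.9997. The log2 fold changes lay between -0.37 and 0.35 with a median of -0.079, against -0.00016 over all genes tested. They were below 0 for 25 of 38 members, against 50.1% of all genes, and for 15 of 38 when libraries were scaled to their Trb counts. That scaling centres the set by construction and moved the median of all genes to 0.10, with the median of the 38 members at 0.034, still below it. With that scaling, 2 of 38 members had an unadjusted p under 0.05, against 7.14% of all genes tested, and 0 of the 2 were lower in GLC.

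Among variable segments, 15 of the 20 tested were below 0 in GLC, against 50.1% of all genes tested. Over all 38 members tested, the number below 0 fell from 25 to 15 when libraries were scaled to their Trb counts. Trbv15 had 277, 252, 220, 218 and 255 counts in WT and 157, 173, 151, 219, 171 and 148 in GLC. All GLC libraries but replicate 10 had fewer counts than any WT library, but scaled levels overlapped, averaging 18.0 ± 2.26 CPM over WT (SD, n = 5) against 13.9 ± 2.51 CPM over GLC (SD, n = 6). This is a log2 fold change of -0.37 (SE 0.13) with a 95% interval from -0.64 to -0.098. GLC replicate 10 alone exceeded the mean of WT. Scaled to Trb counts it was -0.26 (SE 0.13).

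Trbv2 was at 27.2, 20.6, 23.5, 24.4 and 25.8 CPM in WT and at 20.0, 22.2, 21.9, 18.2, 18.5 and 20.6 CPM in GLC. No GLC library lay above the WT mean, and WT replicate 2 lay within the GLC range. Its log2 fold change was -0.26 (SE 0.091), and -0.15 (SE 0.11) when scaled to Trb counts. Trbv13-1 averaged 28.0 ± 2.94 CPM (WT) against 23.8 ± 3.14 CPM (GLC), with a log2 fold change of -0.23 (SE 0.10), and in 1 of 6 GLC libraries it exceeded the mean of WT. Trbv31 was at -0.29 (SE 0.16), Trbv13-3 at -0.20 (SE 0.099), Trbv16 at -0.16 (SE 0.11), Trbv3 at -0.12 (SE 0.15) and Trbv13-2 at -0.10 (SE 0.068), all log2 fold changes. Trbv1 and Trbv19 had log2 fold changes of -0.055 (SE 0.094) and -0.059 (SE 0.079). Their 95% intervals ran from -0.26 to 0.15 and from -0.23 to 0.11.

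Joining segments lay on both sides, with 7 of 14 below 0, against 50.1% of all genes tested. Trbj1-5 was at 3.21, 4.59, 5.17, 4.73 and 5.58 CPM in WT and at 5.77, 6.37, 5.15, 6.66, 5.92 and 5.85 CPM in GLC. Each of the 6 GLC libraries exceeded the mean of WT, and GLC replicate 9 lay within the range of WT. This is a log2 fold change of 0.35 (SE 0.16) with a 95% interval from 0.0079 to 0.70. Trbj1-4 averaged 5.14 ± 0.542 CPM (WT) against 4.09 ± 0.530 CPM (GLC), with a log2 fold change of -0.33 (SE 0.16), and in 0 of 6 GLC libraries it exceeded the mean of WT. Its CPM ranges overlapped, but its share of Trbj counts did not, at 7.24% to 9.76% in WT and 5.76% to 7.12% in GLC. The Trbj shares were not tested. By log2 fold change, Trbj2-2 was at -0.37 (SE 0.20), Trbj1-1 at 0.32 (SE 0.19) and Trbj2-4 at -0.25 (SE 0.18). The others named by the rule lay between -0.15 (Trbj2-1) and 0.13 (Trbj1-2). The constant genes were at -0.082 (SE 0.078) for Trbc1 and -0.13 (SE 0.077) for Trbc2.

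**Figure D4:**
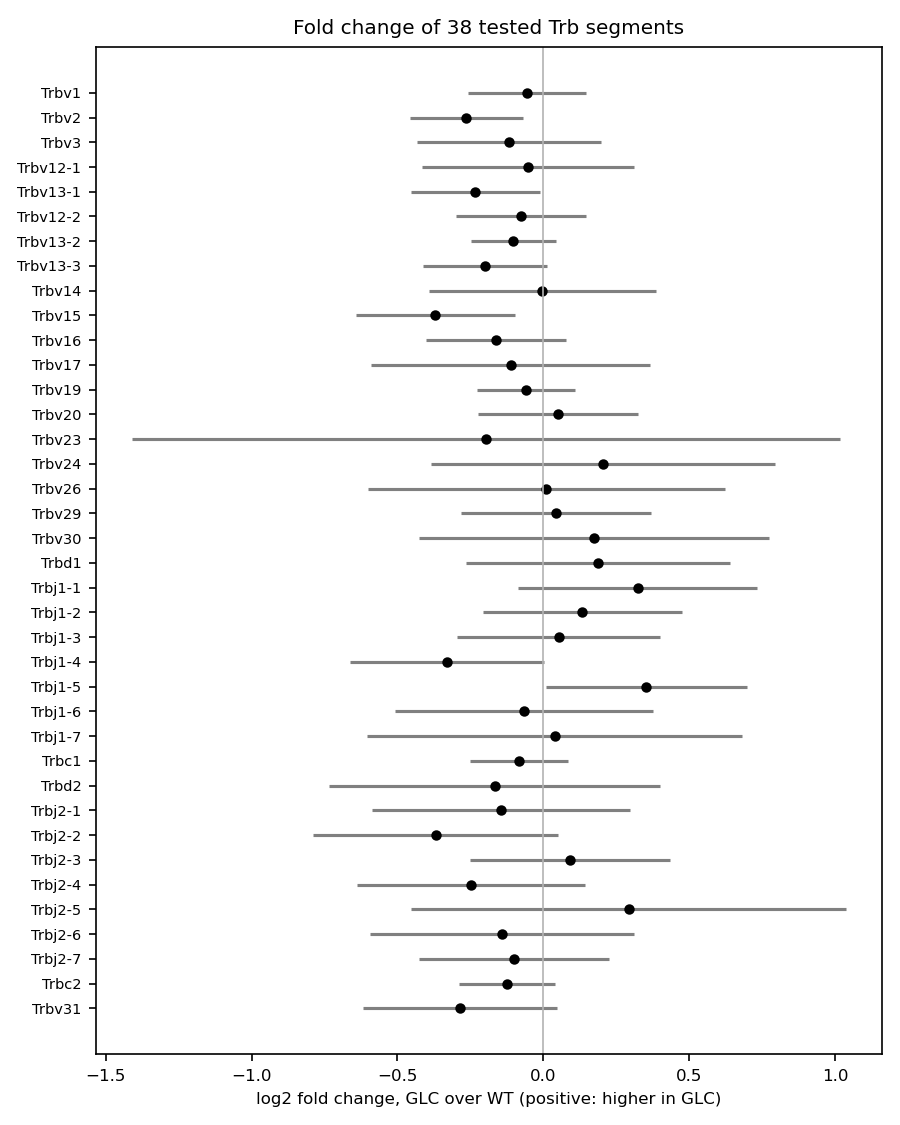
Log2 fold change of GLC over WT (x axis, positive means higher in GLC) with its 95% interval for the 38 Trb segments tested in edgeR (y axis, locus order). Values lie between -0.37 and 0.35, and 4 of the 38 intervals exclude 0.

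Trbv4 was left out of that test because of its low counts, and its groups did not overlap. It is named here after its values were seen. It had 10, 14, 7, 7 and 14 counts in WT replicates 1 to 5, and 1, 0, 2, 0, 2 and 2 counts in GLC replicates 6, 78, 9, 10, 11 and 12. All WT libraries had at least 7 counts and no GLC library had more than 2, with 52 counts over the WT and 7 over the GLC libraries. Its level was 0.757 ± 0.229 CPM in WT (SD, n = 5) and 0.0965 ± 0.0824 CPM in GLC (SD, n = 6). Among all 26249 genes with at least 1 count, 0.118% had groups that did not overlap with GLC lower. In edgeR with no filter beyond at least 1 count, the log2 fold change was -2.86 (SE 0.64), which ranked 4 by p but did not pass (adjusted p = 0.624). With 1 library left out it was between -3.10 and -2.63, and the smallest adjusted p was 0.103, without GLC replicate 11.

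Trbv4 (ENSMUSG00000107486, chr6:41059394-41059886, plus strand) lies just before Trbv5, which had 7, 5, 3, 4 and 5 counts in WT and 4, 5, 7, 1, 5 and 5 in GLC, and after Trbv3, whose CPM ranges overlapped. Neighbours on both sides thus did not show the separation seen at Trbv4. The last 90 bases up to the cysteine codon and the next codon are shown for Trbv4 (chr6:41059786-41059875) and for Trbv15 (chr6:41141558-41141647), the tested segment of smallest p, with TGTGCC in capitals.
Trbv4: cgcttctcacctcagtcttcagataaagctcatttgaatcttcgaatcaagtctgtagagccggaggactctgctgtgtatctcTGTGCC
Trbv15: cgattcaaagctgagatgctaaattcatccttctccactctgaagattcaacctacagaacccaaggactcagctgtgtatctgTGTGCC
No 50-base window of the Trbv4 transcripts occurs in another Trb gene.

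**Figure D5:**
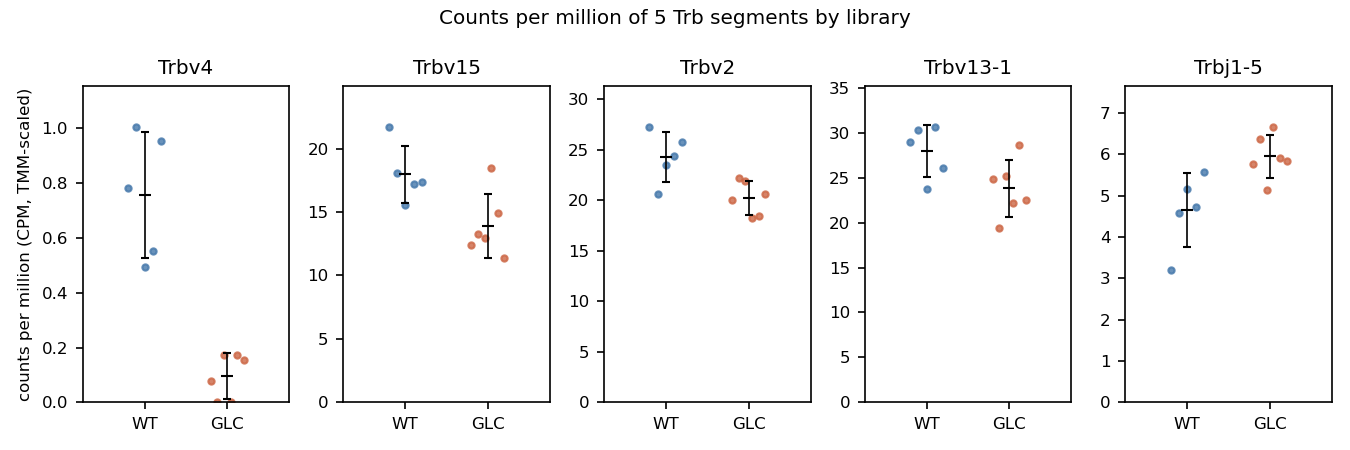
Level in TMM-scaled CPM (y axis, from 0) of Trbv4, Trbv15, Trbv2, Trbv13-1 and Trbj1-5 in WT (n = 5) and GLC (n = 6), with 1 point per library and mean and SD as bars. Trbv4 separates the groups (0.757 against 0.0965 CPM on average), while ranges overlap for the other segments.

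Partner genes of the beta chain were examined beside the segments. Of 6 CD4 T cell genes (Cd3d, Cd3e, Cd3g, Cd247, Trac and Cd4), 0 passed the threshold. A log2 fold change below 0 was seen in 5 of the 6, against 50.1% of all genes tested, and the median was -0.084. Cd247, which encodes the zeta signalling subunit, averaged 621.5 ± 42.5 CPM (WT) against 536.1 ± 20.8 CPM (GLC), with a log2 fold change of -0.21 (SE 0.062). It was the only one of the 6 with an unadjusted p under 0.05, against 4.54% of all genes tested. Trac, the constant gene of the alpha chain, was at 0.011 (SE 0.095). Of 16 genes of antigen receptor assembly, 14 were tested, 0 passed, and the median was 0.013. Rag1 and Rag2, whose products cut the segments, had at most 3 counts in any library. Dntt, which adds bases at the joints in developing lymphocytes, averaged 2.34 ± 0.604 CPM (WT) against 1.49 ± 0.853 CPM (GLC), with overlapping groups (log2 fold change -0.65, SE 0.34).

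Markers of other T cell types were also read. Trdc, the constant gene of the delta chain, had between 237 and 470 counts, and 3 gamma chain constant genes between 16 and 84. Summed over these 4 genes, gamma delta markers ranged from 22.5 to 41.2 CPM in WT and from 28.2 to 47.7 CPM in GLC. Zbtb16, a transcription factor of invariant natural killer T cells, a population whose beta chains often use Trbv13-2, averaged 4.01 ± 1.84 CPM (WT) against 4.04 ± 1.49 CPM (GLC). The summed level of the 4 natural killer T cell markers ranged from 98.9 to 154.8 CPM in WT and from 112.4 to 143.6 CPM in GLC, most of it from Slamf6, which CD4 T cells also express. No marker of these lists passed the threshold, and their part in segment shares was not tested.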

How the data were processed

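For 11 libraries the authors deposited a table of raw gene counts. The submitters' processing notes name the aligner STAR, the counter featureCounts and the build mm10. No source used here gives their versions, the annotation, the strand setting or how multi-mapping reads were handled. Symbols, types, exon lengths and segment sequences were taken from GENCODE M21 (GRCm38), which matched 55144 of 55471 identifiers. Groups follow the sample titles. Beyond the genotypes, no label says that libraries of a group are separate mice, so p-values measure only the spread between these libraries. No library copied another (chi-square per degree of freedom at least 9.48 between libraries of a group over genes with at least 10 counts).

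In R 4.3.3, edgeR 4.0.16 was run on all genes kept by filterByExpr (12404), with TMM scaling, glmQLFit and glmQLFTest, two-sided, without covariates, and Benjamini-Hochberg adjustment over all genes tested at a threshold of 0.05. The step was tested on simulated data. Standard errors come from the F statistic. Shares are percentages of the counts of a segment's class. The Trbc1 share was compared with an exact permutation test in scipy 1.17.1. Alternatives were RLE, upper quartile and Trb-total scaling, other filters, a robust fit, DESeq2 1.42.0, limma-voom (limma 3.58.1), exon-length scaling, omitted pseudogenes and omitted libraries. Trbv4 was added after seeing the data.

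The members and gene lists were chosen with earlier results of these data known. Named were Trbc and Trbd genes, Trbv and Trbj segments with a mean share of at least 5%, the 5 members of smallest p, the 3 Trbv segments (mean of at least 50 counts) with the largest chi-square, and Trbv31. The values of 1 marker gene are not reported here.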

Additional observations from a re-analysis of the deposited data

Results flagged for a closer look

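In 62 sets of values (a share or library measure within 1 group), 2 had a library far from the others, and chance alone gives about 1 in 20. The Trbv15 share of Trbv counts was 5.89% in GLC replicate 10 and between 3.73% and 4.53% in the other GLC libraries. The Trbv1 share was 6.14% in GLC replicate 6 and between 7.06% and 7.61% in the other GLC libraries.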

How the results depend on the processing

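Under every alternative 0 Trb members passed the threshold. Over all genes, 1 passed with no filter beyond at least 1 count and 2 passed with DESeq2, none of them a Trb gene. The difference of the Trbc1 share lay between 0.420 and 1.32 points with 1 library left out, and of these it passed only without WT replicate 5. The effective number of Trbv segments was 14.8 per kilobase of exon and 14.7 without pseudogenes. Of 551 fold changes of named members recomputed, 20 changed sign and 0 passed. Scaled to Trb counts, these were Trbc1 (0.031), Trbj1-6 (0.036), Trbv1 (0.050), Trbv13-2 (0.0080), Trbv19 (0.050) and Trbv3 (0.011). All lay below the median of all genes under that scaling (0.10). It raises log2 fold changes by similar but not equal amounts, so a small value below 0 turns positive by construction. GLC replicates 9 (male pattern) and 78 (pooled) were also left out together. The members that then changed sign were Trbj1-3 (-0.047), Trbj1-6 (0.10) and Trbv26 (-0.24), and with limma-voom Trbv26 (-0.015). With 1 library left out, log2 fold changes ranged from -0.018 to 0.12 for Trbj1-3, -0.17 to 0.025 for Trbj1-6, -0.095 to 0.0027 for Trbv1, -0.17 to 0.15 for Trbv26 and -0.20 to 0.016 for Trbv3; the cause was not tested. No paired analysis was possible because the groups share no replicate numbers. Low or absent counts left 15 Trbv segments untested, 8 of them annotated pseudogenes with no counts in any library. Tested Trbj segments had 7 to 122 counts per library.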
